A study of Mus musculus with 8 samples.

Results

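The probe sets of p53 target genes were followed across 4 groups of 2 mouse expression arrays. The list held 10 genes: Trp53, which encodes p53, and the targets Mdm2, Ccng1, Sesn1, Sesn2, Zmat3, Phlda3, Aen, Trp53inp1 and Rrm2b. Every probe set whose annotation symbol was one of these names was taken, whatever its signal. This gave 24 of the 45101 probe sets on the array, covering 9 of the 18193 genes with a probe set of their own. Trp53 itself was not analysed here. Of the 24 probe sets, 23 passed the filter on low signal and were tested, and the other one, for Mdm2, is given by its signals only.

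The series asked how transcripts differ between cells that express a green fluorescent protein (GFP) reporter for AID, the cytidine deaminase behind antibody class switching and hypermutation, and cells without it. BCR-ABL1 GFP-positive and BCR-ABL1 GFP-negative samples came from bone marrow of reporter mice and carry BCR-ABL1, the fusion tyrosine kinase of Philadelphia chromosome-positive leukaemia. Spleen GFP-positive and Spleen GFP-negative samples are labelled as B cells of reporter mice, treated with LPS and IL-4, a pair of stimuli that drives B cells to divide and to switch class. All 4 groups carry the reporter, and strain, age, the way BCR-ABL1 and the reporter were introduced, pooling of mice and the source of each replicate are not stated in the labels. The p-values below therefore measure only the spread between these arrays, which may be technical.

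p53 is a transcription factor that is held at low levels by Mdm2, a ubiquitin ligase that marks it for destruction, and that accumulates when DNA is damaged or growth signals are abnormal. It then binds a pair of short half-sites in or near its target genes, among them Mdm2 itself, which closes a feedback loop. In B cells the pathway matters because AID makes DNA lesions and because transforming kinases put pressure on p53. The remaining targets fall into those that act on growth and stress signalling (Ccng1, Sesn1, Sesn2), those tied to cell death and Akt (Zmat3, Phlda3, Aen, Trp53inp1) and one that supplies DNA precursors (Rrm2b).

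Promoter windows from 250 bases before to 50 bases after a gene start were read from RefSeq (GRCm38.p6) and searched on both strands for the p53 half-site consensus of 10 bases, and for 2 half-sites in a row with at most 3 mismatches in 20 bases. A half-site that lies inside such a run is counted in both. Windows were matched for 6 of the 9 genes, 8 windows in all, of which 5 held a half-site and 4 held a run. The 2 Aen windows overlap and share their site, so by gene 4 of 6 held a half-site and 3 of 6 a run. Over all 32851 windows, 8.36% held a half-site and 6.29% held a run. The windows printed below are from the 4 genes with a half-site, and only windows with a match are shown. These genes took 3 different courses in splenic cells. Ccng1 and Aen rose in part or all of their probe sets, and Sesn1 fell. The strongest-signal Mdm2 probe set did not pass the test in either direction. Sesn2 and Phlda3, whose windows held no match and are not printed, rose in splenic cells on all their probe sets. Whether a match goes with a change in signal was not tested. Capitals mark the matches, all other bases are in lower case, and each window is written 5′ to 3′ on the strand of its gene.
Ccng1, chr11:40755237-40755536, minus strand: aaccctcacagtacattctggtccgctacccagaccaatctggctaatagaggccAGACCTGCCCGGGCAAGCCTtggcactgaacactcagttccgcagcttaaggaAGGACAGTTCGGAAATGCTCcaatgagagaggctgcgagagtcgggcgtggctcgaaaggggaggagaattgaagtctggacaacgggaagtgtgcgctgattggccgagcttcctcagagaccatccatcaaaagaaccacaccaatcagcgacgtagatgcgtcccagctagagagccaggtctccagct
Aen, chr7:78895677-78895976, plus strand: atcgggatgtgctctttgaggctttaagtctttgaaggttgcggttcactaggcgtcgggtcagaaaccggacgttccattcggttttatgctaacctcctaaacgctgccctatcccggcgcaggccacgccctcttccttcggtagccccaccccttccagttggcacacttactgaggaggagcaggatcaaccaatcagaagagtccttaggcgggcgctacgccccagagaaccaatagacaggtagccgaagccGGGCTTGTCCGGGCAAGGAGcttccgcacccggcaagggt
Mdm2, chr10:117710709-117711008, minus strand: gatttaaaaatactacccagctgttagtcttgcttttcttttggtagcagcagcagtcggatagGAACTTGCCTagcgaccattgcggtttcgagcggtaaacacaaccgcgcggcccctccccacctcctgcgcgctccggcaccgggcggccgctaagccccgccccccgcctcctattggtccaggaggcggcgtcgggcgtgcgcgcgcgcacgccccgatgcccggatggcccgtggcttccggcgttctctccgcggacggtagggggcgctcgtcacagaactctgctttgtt
Sesn1, chr10:41887189-41887488, plus strand: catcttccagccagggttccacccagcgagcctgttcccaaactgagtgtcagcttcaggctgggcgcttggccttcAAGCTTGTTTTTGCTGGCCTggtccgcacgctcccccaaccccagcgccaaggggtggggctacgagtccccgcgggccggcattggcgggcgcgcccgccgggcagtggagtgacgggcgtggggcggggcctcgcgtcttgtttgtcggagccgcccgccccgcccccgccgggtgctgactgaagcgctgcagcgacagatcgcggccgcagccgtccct

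The Ccng1 window held a run 195 bases before the start with 1 mismatch and another 142 bases before it with 3 mismatches. In Aen the run began 10 bases after the start with 3 mismatches, and the same run lies 121 bases before the second listed Aen start. The Mdm2 window held a single half-site 186 bases before the start and no run. The Sesn1 window, at 1 of 2 listed starts of the gene, held a run 173 bases before the start with 3 mismatches. The windows of Sesn2, Phlda3 and the other Sesn1 start held no match, which says only that these letters are not in those 300 bases. A match is a description of sequence and not evidence of binding.

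Signals are linear array intensities after quantile normalization, with a floor of 32, and differences are on the log2 scale with standard errors from 1 limma fit of all 8 arrays. A probe set was called when its Benjamini-Hochberg adjusted p, taken over all 27022 probe sets tested, was under 0.05. The number of arrays, 2 per group, limits the precision. The Spleen GFP-negative arrays stood apart from the other 6, and their markers go against a label of B cells alone. Their summed myeloid marker signal was 74810 to 77057, against 376 to 400 on the Spleen GFP-positive arrays and 618 to 713 on the BCR-ABL1 arrays. The summed T and NK cell marker signal was 729 to 765 on the Spleen GFP-positive arrays and 14439 to 16080 on the Spleen GFP-negative arrays, and the 11 proliferation markers summed to 57615 to 58320 and to 15042 to 15605 in the same order of groups. B cell markers (6 measured) were highest on the Spleen GFP-negative arrays, with sums of 41232.5 to 41401. They summed to 36180 to 38091 on the Spleen GFP-positive arrays and 27235 to 28531 on the BCR-ABL1 arrays. The 4 plasma cell markers summed to 9535 to 9632 on the Spleen GFP-positive arrays and 20260 to 20301 on the Spleen GFP-negative arrays. The 5 pre-B markers summed to between 26380 and 29335 on the BCR-ABL1 arrays and between 979 and 2530 on the spleen arrays. The 3′ to 5′ signal ratio of Gapdh, a measure of RNA integrity, was 1.40 and 1.48 on the Spleen GFP-positive arrays, 1.93 and 1.88 on the Spleen GFP-negative arrays and between 1.41 and 1.47 on the BCR-ABL1 arrays. All results that use the Spleen GFP-negative arrays move with these values, and their part in the results was not tested. In bulk samples fewer cells of a type and less RNA per cell cannot be told apart.

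**Figure D1:**
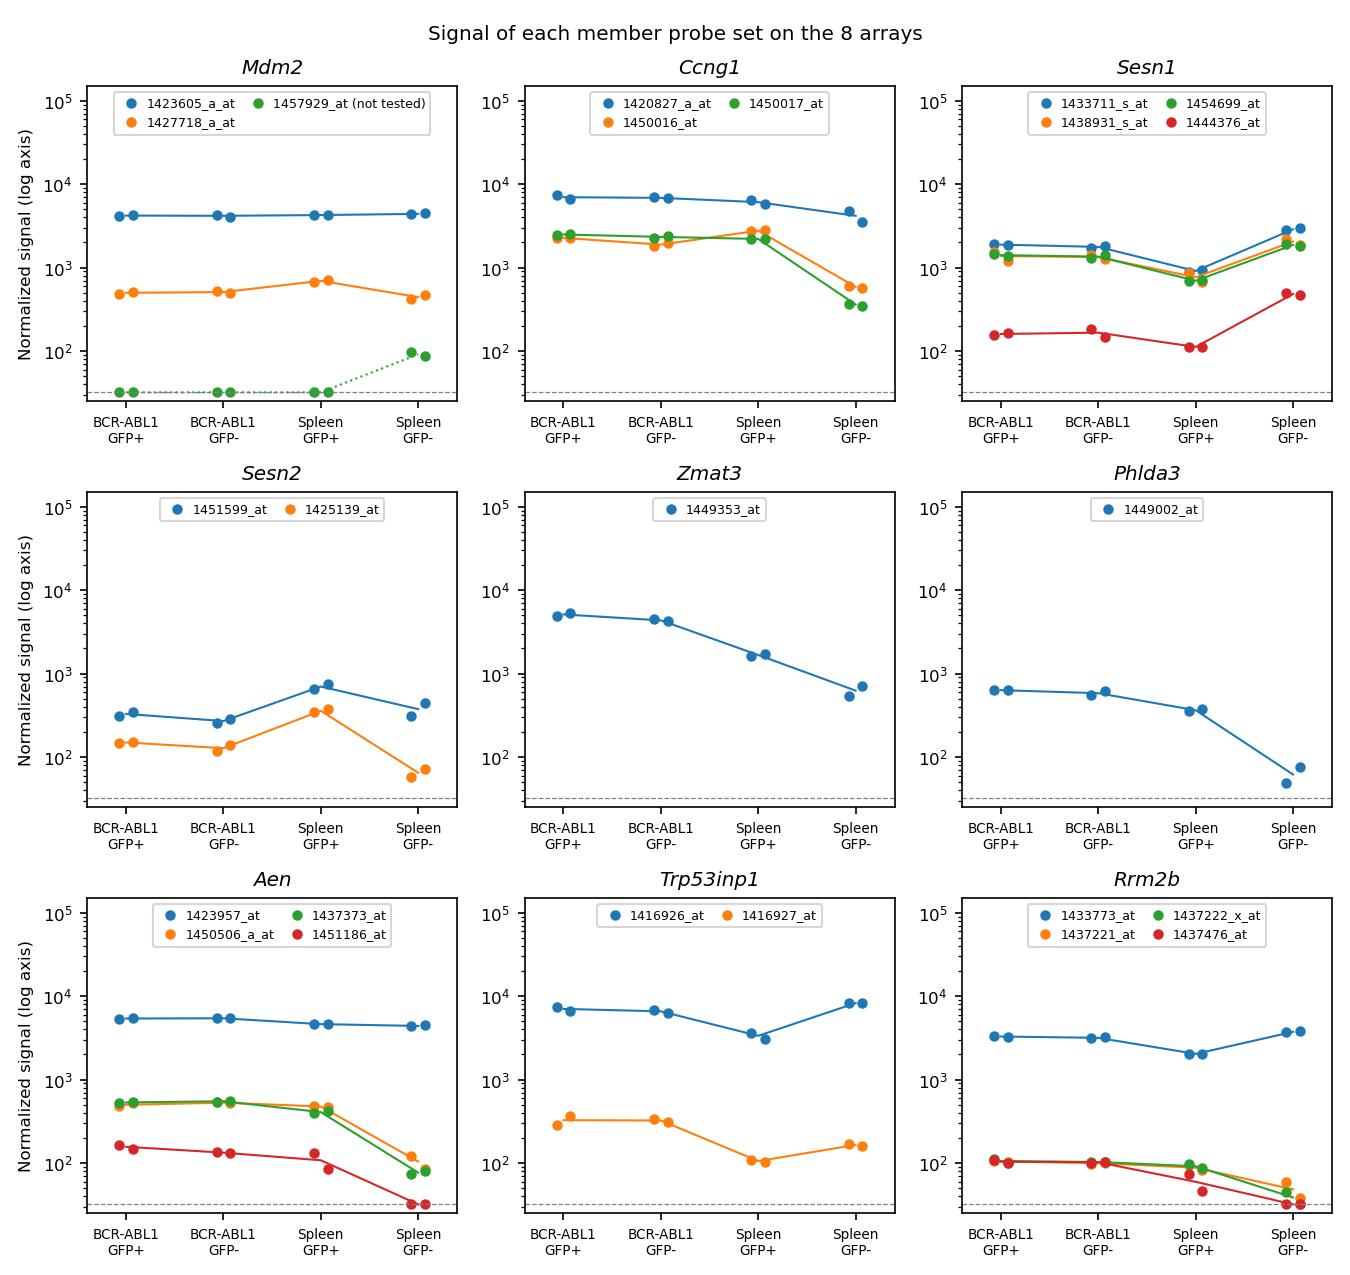
Normalized signal (log axis) of each of the 24 probe sets on the 8 arrays, 1 panel per gene; points are arrays, lines join the group means and the dashed line is the floor of 32. In each panel the BCR-ABL1 GFP-positive and GFP-negative points lie close together, while the spleen groups differ for most probe sets, upwards for Phlda3 and Zmat3 and downwards for Sesn1.

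In BCR-ABL1 cells none of the 9 listed p53 target genes passed the test between the GFP-positive and GFP-negative fractions. None of the 23 tested probe sets was called by limma, against a background of 2.80% of all probe sets tested in this comparison (1.57% higher and 1.23% lower, with 0.973% called and at least 2-fold). At an unadjusted p under 0.05 there was 1 member, a Ccng1 probe set, and 3117 probe sets in all. The members' log2 differences ran from -0.08 to 0.28, with a median of 0.05 beside -0.002 over all probe sets. The 95% intervals reached at most 0.70 upwards (Sesn2 and Aen) and -0.48 downwards (Aen), so differences within those limits were not excluded by these arrays.

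The differences were above 0 for 18 of the 23 probe sets, beside 46.8% of all probe sets. Both GFP-positive arrays lay above both GFP-negative arrays for 10 of the 23 probe sets, where 23.6% of all tested probe sets did so, and below them for 1, an Aen probe set, where 22.8% of all did so. The 10 were 2 each of Ccng1, Sesn2 and Rrm2b and 1 each of Sesn1, Zmat3, Phlda3 and Aen. Probe sets of 1 gene are not counted as independent of each other. When both Spleen GFP-negative arrays were left out before normalization, an alternative chosen after seeing the data, 2 members were called, with 6.19% of all probe sets. These were Ccng1 1450016_at (0.26, adjusted p = 0.0303 by limma) and Zmat3 (0.23, adjusted p = 0.0448), while their values with all 8 arrays were 0.27 (adjusted p = 0.127) and 0.24 (adjusted p = 0.579).

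In splenic cells the same genes differed widely between the GFP fractions and in both directions. Of the 23 tested probe sets, 14 rose and 7 fell in the GFP-positive cells, where 44.9% of all probe sets rose and 33.3% fell, so that 21 of 23 stood beside a background of 78.2% called. The probe sets that rose belonged to Mdm2, Ccng1, Sesn2, Zmat3, Phlda3, Aen and Rrm2b, and those that fell to Sesn1, Trp53inp1 and Rrm2b. The members' median log2 difference was 0.86, beside 0.17 over all probe sets, and 14 of them were called with at least a 2-fold difference, as were 43.1% of all. Among all calls 57.4% were higher with this scaling, 65.2% on the deposited scale and 71.1% when arrays were shifted to equal medians instead, and the median over all probe sets was 0.17, 0.35 and 0.51 in the same order. Splenic values are read relative to these medians.

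**Figure D2:**
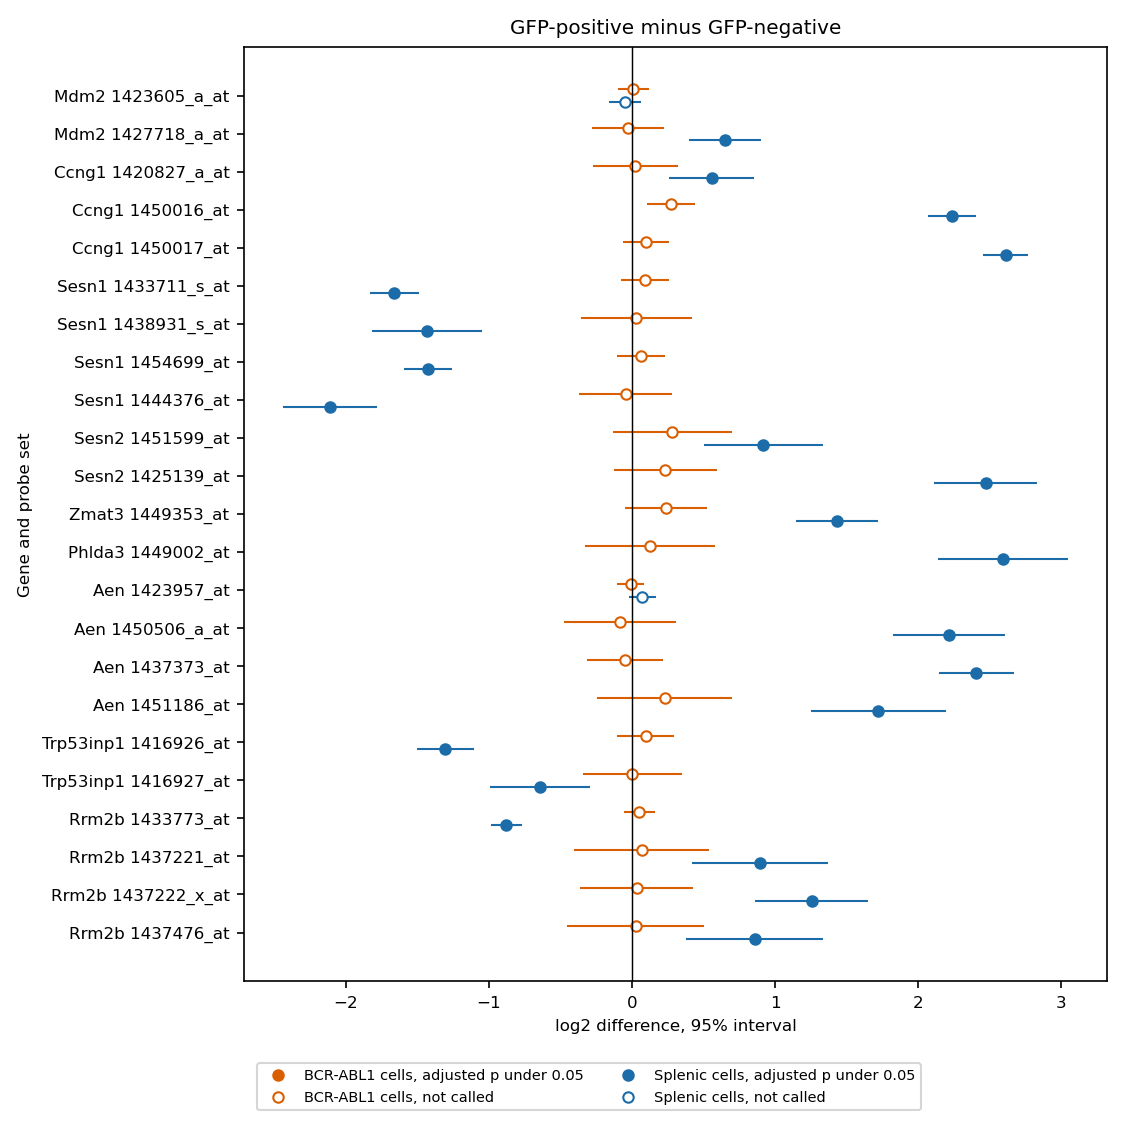
Log2 difference, GFP-positive minus GFP-negative, of the 23 tested probe sets in BCR-ABL1 cells and in splenic cells; lines are 95% intervals from limma and filled points have an adjusted p under 0.05. All points of the BCR-ABL1 cells are open and lie between -0.08 and 0.28, and the splenic points run from -2.11 (Sesn1) to 2.61 (Ccng1).

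Mdm2, the ubiquitin ligase that limits p53, was read by 3 probe sets that took different courses. Probe set 1423605_a_at gave 4167 and 4239 on the BCR-ABL1 GFP-positive arrays, 4328 and 4029.8 on the BCR-ABL1 GFP-negative arrays, 4238 and 4287 on the Spleen GFP-positive arrays and 4358 and 4455 on the Spleen GFP-negative arrays. Its group means spanned 0.077 on the log2 scale and no comparison between groups was called. The splenic difference of -0.05 ± 0.047 (adjusted p = 0.375 by limma) became 0.13 on the deposited scale and 0.29 after a median shift, both called. Probe set 1427718_a_at gave 483 and 516, 526 and 492, 671 and 718, and 418 and 468 in the same order of groups. It rose by 0.65 ± 0.11 in Spleen GFP-positive cells (1.57-fold, adjusted p = 6.39e-04), while the BCR-ABL1 difference was -0.03 ± 0.11 (adjusted p = 1.00). The third probe set, 1457929_at, was at the floor on all arrays but those of Spleen GFP-negative cells, where it gave 96.6 and 86.4. It was under the filter and not tested, and its signal was at least 2.85-fold lower in Spleen GFP-positive than in Spleen GFP-negative cells.

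Ccng1 encodes cyclin G1, which recruits a protein phosphatase to Mdm2. Probe set 1450017_at gave 2452 and 2538 on the BCR-ABL1 GFP-positive arrays, 2267 and 2402 on the BCR-ABL1 GFP-negative arrays, 2181 and 2230.4 on the Spleen GFP-positive arrays and 371 and 352 on the Spleen GFP-negative arrays. Only the Spleen GFP-negative arrays were low, and the splenic difference was 2.61 ± 0.069 (6.11-fold, adjusted p = 3.65e-08 by limma). Probe set 1450016_at gave 2289 and 2254, 1806 and 1965, 2715 and 2830.2, and 608 and 567 in the same order. Here the Spleen GFP-positive arrays were the highest, with a splenic difference of 2.24 ± 0.072 (adjusted p = 8.37e-08). The BCR-ABL1 difference of this probe set, 0.27 with a 95% interval of 0.10 to 0.44, missed the threshold (adjusted p = 0.127). Probe set 1420827_a_at gave 7326 and 6630.4, 6925 and 6775, 6412 and 5762, and 4803 and 3545. It rose less in Spleen GFP-positive cells, by 0.56 ± 0.13 (1.47-fold, adjusted p = 0.00397), and its Spleen GFP-negative arrays were further apart than the arrays of its other groups.

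The sestrins, stress proteins that restrain the growth kinase complex mTORC1, moved in opposite directions in splenic cells. Sesn1 probe set 1433711_s_at gave 1905 and 1864 on the BCR-ABL1 GFP-positive arrays, 1707 and 1835 on the BCR-ABL1 GFP-negative arrays, 874 and 948 on the Spleen GFP-positive arrays and 2792 and 2963 on the Spleen GFP-negative arrays. The spleen groups held the lowest and the highest signals, with the BCR-ABL1 arrays between them. All 4 Sesn1 probe sets fell in Spleen GFP-positive cells, by 1.66 ± 0.073 (3.16-fold, adjusted p = 3.60e-07 by limma) for 1433711_s_at. The fall was 1.43 ± 0.17 for 1438931_s_at, 1.43 ± 0.072 for 1454699_at and 2.11 ± 0.14 for 1444376_at (adjusted p = 7.95e-05, 7.36e-07 and 3.20e-06). In BCR-ABL1 cells the same 4 probe sets differed by -0.04 to 0.09.

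Sesn2, which also senses leucine, had 2 probe sets and both rose in Spleen GFP-positive cells. Probe set 1425139_at gave 149 and 151 on the BCR-ABL1 GFP-positive arrays, 117 and 138 on the BCR-ABL1 GFP-negative arrays, 345 and 372 on the Spleen GFP-positive arrays and 58.0 and 71.8 on the Spleen GFP-negative arrays. Its splenic difference was 2.47 ± 0.16 (5.55-fold, adjusted p = 2.24e-06 by limma). Probe set 1451599_at gave 309 and 348, 257 and 283, 657 and 743, and 309 and 442 in the same order, and the splenic difference was 0.92 ± 0.18 (1.89-fold, adjusted p = 0.00164). Both probe sets were highest on the Spleen GFP-positive arrays. In BCR-ABL1 cells the differences were 0.23 ± 0.16 and 0.28 ± 0.18 (adjusted p = 0.734 and 0.704 by limma). On each, both GFP-positive arrays lay above both GFP-negative arrays, as they did for 23.6% of all tested probe sets.

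Zmat3, a zinc finger protein that binds RNA, followed 1 order over the groups. It gave 4967 and 5273 on the BCR-ABL1 GFP-positive arrays, 4451 and 4238 on the BCR-ABL1 GFP-negative arrays, 1609 and 1734 on the Spleen GFP-positive arrays and 536 and 715 on the Spleen GFP-negative arrays. No neighbouring groups overlapped, but the first step, 0.24 with a 95% interval of -0.05 to 0.52, did not pass the test (adjusted p = 0.579 by limma). Both BCR-ABL1 GFP-positive arrays lay above both BCR-ABL1 GFP-negative arrays for 23.6% of all tested probe sets. The splenic rise was 1.43 ± 0.12 (2.70-fold, adjusted p = 1.35e-05 by limma).

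Phlda3, a pleckstrin homology protein that competes with Akt at the membrane, followed the same order. Its signals were 630.3 and 637 on the BCR-ABL1 GFP-positive arrays, 549 and 616 on the BCR-ABL1 GFP-negative arrays, 352 and 377 on the Spleen GFP-positive arrays and 48.7 and 75.0 on the Spleen GFP-negative arrays. Only the Spleen GFP-negative arrays came near the floor. The splenic rise was 2.59 ± 0.20 (6.03-fold, adjusted p = 6.30e-06 by limma), and the BCR-ABL1 difference was 0.12 ± 0.20 (adjusted p = 0.984).

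Aen, a nuclease that takes part in apoptosis, had 4 probe sets that did not behave alike. Probe set 1423957_at gave 5265 and 5527 on the BCR-ABL1 GFP-positive arrays, 5411 and 5450.2 on the BCR-ABL1 GFP-negative arrays, 4661 and 4579 on the Spleen GFP-positive arrays and 4332 and 4459.5 on the Spleen GFP-negative arrays. Its splenic difference of 0.07 ± 0.041 was not called (adjusted p = 0.143 by limma), and it was called on the deposited scale (0.24) and after a median shift (0.40). Probe set 1437373_at gave 519 and 546, 543 and 558, 393 and 423, and 73.6 and 80.1 in the same order, a splenic rise of 2.41 ± 0.11 (5.31-fold, adjusted p = 5.05e-07). For 1450506_a_at the splenic rise was 2.21 ± 0.17 (4.64-fold, adjusted p = 6.64e-06). Probe set 1451186_at was at the floor on both Spleen GFP-negative arrays and at 131 and 84.6 on the Spleen GFP-positive arrays, at least 3.29-fold higher (adjusted p = 8.80e-05). The 3 probe sets that rose thus separated the Spleen GFP-negative arrays from the other 6, and the first did so weakly or not at all.

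Trp53inp1, a stress-induced protein that promotes cell death and autophagy, fell in Spleen GFP-positive cells on both of its probe sets. Probe set 1416926_at gave 7370.0 and 6695 on the BCR-ABL1 GFP-positive arrays, 6870.2 and 6285 on the BCR-ABL1 GFP-negative arrays, 3639.7 and 3061 on the Spleen GFP-positive arrays and 8283 and 8218 on the Spleen GFP-negative arrays. The Spleen GFP-positive arrays alone were low, with a difference of -1.31 ± 0.086 (2.47-fold, adjusted p = 2.86e-06 by limma). Probe set 1416927_at gave 287 and 366, 339.8 and 308, 108 and 104, and 170.3 and 159.9 in the same order, and the splenic difference was -0.64 ± 0.15 (adjusted p = 0.00441). After a median shift of the arrays this second fall was -0.36 and no longer called (adjusted p = 0.0520).

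Rrm2b encodes a p53-inducible subunit of ribonucleotide reductase, which supplies DNA precursors, and its 4 probe sets disagreed in splenic cells. Probe set 1433773_at gave 3295 and 3274 on the BCR-ABL1 GFP-positive arrays, 3119.7 and 3212 on the BCR-ABL1 GFP-negative arrays, 2035 and 2030.1 on the Spleen GFP-positive arrays and 3687 and 3789 on the Spleen GFP-negative arrays. It fell by 0.88 ± 0.047 in Spleen GFP-positive cells (1.84-fold, adjusted p = 9.36e-07 by limma). The other 3 rose there: 1437221_at by 0.90 ± 0.20 (adjusted p = 0.00392), 1437222_x_at by 1.26 ± 0.17 (adjusted p = 2.04e-04) and 1437476_at at least 1.81-fold (adjusted p = 0.00510). These 3 were dim, at 45.9 to 96.7 on the Spleen GFP-positive arrays and at 32 to 58.9 on the Spleen GFP-negative arrays, where 1437476_at was at the floor on both. With a floor of 64 the splenic difference of 1437476_at was 0.098 and not called (adjusted p = 0.355). The _x_at suffix marks a probe set some of whose probes can match other transcripts. Mean log2 values over the 4 probe sets gave a splenic difference of 0.53 for the gene, opposite to 1433773_at, so no direction is given for Rrm2b as a gene.

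The GFP differences themselves were compared between BCR-ABL1 and splenic cells with an interaction term. Of the 23 probe sets, 20 differed, 7 with a higher and 13 with a lower value in BCR-ABL1 cells, against 69.8% of all probe sets called (29.5% higher and 40.3% lower). At least 2-fold and called were 14, beside 43.0% of all. The lowest and highest values were -2.51 ± 0.097 for Ccng1 1450017_at and 2.06 ± 0.20 for Sesn1 1444376_at (adjusted p = 5.80e-07 and 4.63e-05 by limma). The 3 not called were Mdm2 1423605_a_at (0.06 ± 0.067, adjusted p = 0.465), Aen 1423957_at (-0.08 ± 0.058, adjusted p = 0.242) and Sesn2 1451599_at (-0.64 ± 0.25, adjusted p = 0.0525). Calls of Ccng1 1420827_a_at, Trp53inp1 1416927_at, Rrm2b 1437221_at and Rrm2b 1437476_at did not hold without single arrays: for each of the 8 arrays, leaving it out ended at least 1 of these 4 calls, with adjusted p between 0.0530 and 0.110. Sesn2 1451599_at was called on the deposited scale (-1.14) and after a median shift (-1.28), as was Aen 1423957_at (-0.26 and -0.40). With a floor of 64 in place of 32, Rrm2b 1437476_at and Aen 1451186_at were not called (adjusted p = 0.630 and 0.160).

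Set against Spleen GFP-positive cells, BCR-ABL1 GFP-positive cells held more Zmat3, Trp53inp1 and Sesn1 and less Sesn2. Phlda3 was also called higher, but not when the filter on low signal was left out (adjusted p = 0.0614 by limma). Tissue, stimulation and BCR-ABL1 differ together between these groups and cannot be told apart, and the comparison shares arrays with the GFP comparisons above. Of the 23 probe sets, 12 were higher and 4 lower in BCR-ABL1 cells, where 44.0% of all probe sets were called (22.4% higher and 21.6% lower). The members' median was 0.39, beside -0.026 over all. The Spleen GFP-negative arrays do not enter this difference, although they do enter the normalization and the estimate of spread. Without them 19 probe sets were called, 15 higher and 4 lower, beside 56.0% of all.

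Zmat3 was 1.62 ± 0.12 higher in BCR-ABL1 GFP-positive than in Spleen GFP-positive cells (3.06-fold, adjusted p = 2.15e-05 by limma). Trp53inp1 was 1.07 ± 0.086 higher on 1416926_at (2.10-fold, adjusted p = 2.69e-05) and 1.62 ± 0.15 higher on 1416927_at (3.07-fold, adjusted p = 6.56e-05). Sesn1 was higher on all 4 probe sets, from 0.52 ± 0.14 on 1444376_at to 1.05 ± 0.073 on 1433711_s_at (adjusted p = 0.0191 and 1.21e-05). Rrm2b 1433773_at was 0.69 ± 0.047 higher (adjusted p = 1.03e-05), with 1437476_at also higher (0.84 ± 0.21, adjusted p = 0.0115) and the other 2 not called. On each of these called probe sets all 4 BCR-ABL1 arrays, of both fractions, lay above the Spleen GFP-positive arrays.

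Sesn2 went the other way, by -1.26 ± 0.16 on 1425139_at and -1.09 ± 0.18 on 1451599_at (adjusted p = 3.28e-04 and 0.00160). Mdm2 1427718_a_at was lower by 0.48 on the log2 scale (standard error 0.11, adjusted p = 0.00792), and Ccng1 1450016_at by 0.29 (adjusted p = 0.0132). Phlda3 was higher by 0.80 ± 0.20 (1.74-fold, adjusted p = 0.0118). Aen was higher by 0.22 ± 0.041 on 1423957_at (adjusted p = 0.00295) and by 0.39 ± 0.11 on 1437373_at (adjusted p = 0.0261). Several of these calls rest on all 4 arrays: leaving out any 1 of them raised the adjusted p of Phlda3 to between 0.0541 and 0.0736, that of Sesn1 1444376_at to between 0.0748 and 0.120, and that of Aen 1437373_at to between 0.0674 and 0.161. Ccng1 1450016_at missed the threshold without either BCR-ABL1 GFP-positive array or Spleen GFP-positive replicate 2 (0.0685 to 0.0864). Mdm2 1427718_a_at did so without BCR-ABL1 GFP-positive replicate 1 (0.0714) or Spleen GFP-positive replicate 2 (0.0631), and Rrm2b 1437476_at without BCR-ABL1 GFP-positive replicate 1 (0.0712). Leaving out any 1 of the 4 arrays of this comparison lowered the number of calls both among the 23 probe sets and among all probe sets tested.

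**Figure D3:**
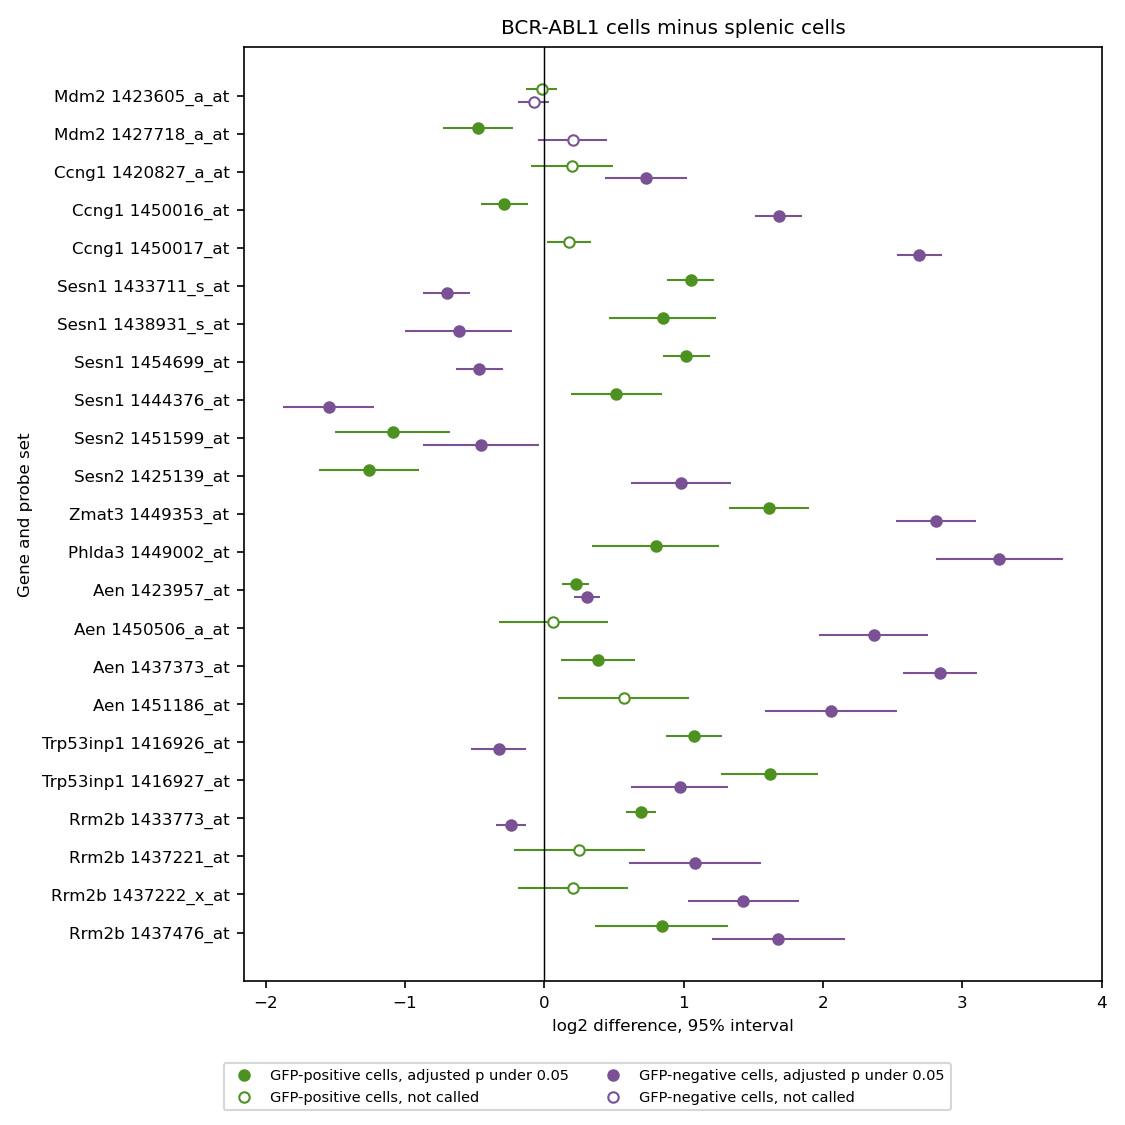
Log2 difference, BCR-ABL1 minus splenic cells, of the 23 tested probe sets in GFP-positive cells and in GFP-negative cells; lines are 95% intervals from limma and filled points have an adjusted p under 0.05. Zmat3 and Phlda3 are above 0 in both fractions, and the 4 Sesn1 probe sets are above 0 in GFP-positive cells and below 0 in GFP-negative cells.

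Between the GFP-negative groups 14 probe sets were higher and 7 lower in BCR-ABL1 cells, 21 of 23 beside 78.9% of all (45.5% higher and 33.4% lower). Of these 11 differed at least 2-fold, beside 45.1% of all. On the deposited scale 15 were higher and 3 lower, beside 80.3% of all probe sets called. After a median shift 16 were higher and 2 lower, beside 81.2% of all. Zmat3 was 2.81 ± 0.12 higher in BCR-ABL1 GFP-negative than in Spleen GFP-negative cells (7.02-fold, adjusted p = 2.86e-07 by limma) and Phlda3 3.27 ± 0.20 higher (9.62-fold, adjusted p = 1.55e-06). Sesn1 was lower on all 4 probe sets, by 0.47 to 1.55 on the log2 scale, opposite to its sign between the GFP-positive groups. Aen 1437373_at was higher by 2.84 ± 0.11 (adjusted p = 1.73e-07). The falls of Sesn1 1438931_s_at and 1454699_at, Trp53inp1 1416926_at and Rrm2b 1433773_at were not called in at least 1 of the other scalings, and Sesn2 1451599_at, at -0.45 here, was at 0.087 on the deposited scale and at 0.20 after a median shift. The call of Sesn2 1451599_at was lost without any 1 array except Spleen GFP-negative replicate 1 (adjusted p 0.0680 to 0.231). Trp53inp1 1416926_at lost its call without BCR-ABL1 GFP-negative replicate 2 or either Spleen GFP-negative array (0.0649 to 0.0754), and Sesn1 1438931_s_at without BCR-ABL1 GFP-negative replicate 2 (0.0669) or Spleen GFP-negative replicate 1 (0.107). Of all calls here 57.6% were higher, with 66.4% on the deposited scale and 70.6% when medians were equalised.

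Other genes of the p53 pathway were taken from lists, each gene by its tested probe set with the strongest signal. Of 13 tested upstream regulators none was called by limma in BCR-ABL1 cells, where 2 had an unadjusted p under 0.05, and in splenic cells 5 rose and 5 fell with GFP. Of 30 tested targets outside the 9 genes, 2 rose with GFP in BCR-ABL1 cells (8 had an unadjusted p under 0.05) and 28 were not called, while in splenic cells 20 rose and 8 fell. The share called was 2.80% of all probe sets in BCR-ABL1 cells and 78.2% in splenic cells, and 5.37% and 77.1% when only the brightest probe set of each gene was tested. At an unadjusted p under 0.05 there were 3117 of the 27022 probe sets tested in BCR-ABL1 cells. The 2 targets that rose with GFP in BCR-ABL1 cells were Cdkn1a, the cell cycle inhibitor p21, and Pmaip1, which encodes the death protein Noxa. Cdkn1a 1424638_at gave 6724 and 7008 on the BCR-ABL1 GFP-positive arrays, 5703 and 5663 on the BCR-ABL1 GFP-negative arrays, 1597 and 1679.8 on the Spleen GFP-positive arrays and 1092 and 1117 on the Spleen GFP-negative arrays. It rose by 0.27 ± 0.052 (adjusted p = 0.0362 by limma) in BCR-ABL1 GFP-positive cells and by 0.57 ± 0.052 (adjusted p = 1.78e-05) in Spleen GFP-positive cells. The second Cdkn1a probe set, 1421679_a_at, was not called in BCR-ABL1 cells (0.39 ± 0.13, adjusted p = 0.219) and rose by 1.64 ± 0.13 in Spleen GFP-positive cells (adjusted p = 6.80e-06). Between the GFP-positive groups 1424638_at was 2.07 ± 0.052 higher in BCR-ABL1 cells (4.19-fold, adjusted p = 4.29e-08). Pmaip1 rose by 0.32 ± 0.064 in BCR-ABL1 GFP-positive cells (adjusted p = 0.0436) and by 0.26 ± 0.064 in Spleen GFP-positive cells (adjusted p = 0.00588). Both BCR-ABL1 calls were close to the threshold, and each held in 12 of 25 other settings, a check added after seeing the data. Without any 1 of the 4 BCR-ABL1 arrays or the 2 Spleen GFP-positive arrays, Cdkn1a had an adjusted p of 0.0563 to 0.366 and Pmaip1 of 0.0948 to 0.361.

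Some cell type markers also differed between the BCR-ABL1 fractions, where 2.80% of all probe sets were called (1.57% higher and 1.23% lower). An unadjusted p under 0.05 was found for 3117 of the 27022 probe sets tested. The 4 plasma cell markers summed to between 6098 and 6555 on the BCR-ABL1 GFP-positive arrays and between 5348 and 5513 on the BCR-ABL1 GFP-negative arrays, with 1 called higher and all 4 at an unadjusted p under 0.05 (median 0.46). The 8 T and NK cell markers summed to 565 to 595 and to 410 to 439 in the same order, with 2 called higher. The 6 B cell markers summed to 27235 to 27495 and to 28126 to 28531, with 2 called lower and a median log2 difference of -0.035. The 5 pre-B markers summed to 28581 to 29335 and to 26380 to 27163, with 2 called higher and a median of 0.064. None of the 11 proliferation markers and 8 myeloid markers tested was called. The part of these values in the differences of the p53 targets was not tested.

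The death receptor gene Fas differed by -3.43 ± 0.14 on the log2 scale in BCR-ABL1 GFP-positive cells relative to Spleen GFP-positive cells (10.7-fold lower, adjusted p = 5.66e-07 by limma). Its signals were 263 and 299 on the BCR-ABL1 GFP-positive arrays, 163 and 203 on the BCR-ABL1 GFP-negative arrays, 2933 and 3099.6 on the Spleen GFP-positive arrays and 1375 and 1608 on the Spleen GFP-negative arrays. It rose by 1.02 ± 0.14 with GFP in splenic cells (adjusted p = 1.96e-04 by limma), and the BCR-ABL1 difference of 0.63 ± 0.14 missed the threshold (adjusted p = 0.0641). Bbc3, which encodes the death protein Puma, rose by 1.17 ± 0.18 in Spleen GFP-positive cells (adjusted p = 4.88e-04). The growth arrest genes Btg2 and Gadd45a and the repair gene Ddb2 fell there, by 1.86 ± 0.070, 1.04 ± 0.083 and 1.05 ± 0.085 (adjusted p = 1.68e-07, 8.37e-06 and 9.14e-06). The largest other splenic changes among the targets were those of the mitotic proteins Gtse1 (3.32 ± 0.21) and Psrc1 (3.19 ± 0.11), and of the lysosomal protein Dram1 (-2.38 ± 0.35). For Dram1 the Spleen GFP-positive arrays gave 32.4 and 44.2 and the Spleen GFP-negative arrays 304 and 128.

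Among the upstream regulators, Cdkn2a, whose Arf product inhibits Mdm2, gave 1794 and 1880.0 on the BCR-ABL1 GFP-positive arrays, 1360.1 and 1419 on the BCR-ABL1 GFP-negative arrays and 582 and 687 on the Spleen GFP-positive arrays. On both Spleen GFP-negative arrays it was at the floor, so that it was at least 19.8-fold higher in Spleen GFP-positive cells (adjusted p = 3.58e-08 by limma). The BCR-ABL1 difference with GFP was 0.40 ± 0.11 (adjusted p = 0.148 by limma). Which product of Cdkn2a this signal came from was not tested. The damage kinase genes Atm and Chek2 rose by 0.80 ± 0.094 and 2.58 ± 0.13 in Spleen GFP-positive cells (adjusted p = 8.31e-05 and 7.63e-07), with 0.42 ± 0.094 (adjusted p = 0.0715) for Atm in BCR-ABL1 cells. The second Atm probe set, 1421205_at, rose by 2.56 ± 0.13 in Spleen GFP-positive cells (adjusted p = 6.17e-07) and differed by -0.0078 ± 0.13 in BCR-ABL1 cells (adjusted p = 1.00). Ppm1d, a phosphatase that opposes p53, rose by 0.86 ± 0.12 in Spleen GFP-positive cells (adjusted p = 2.20e-04), and the p53 inhibitor gene Mdm4 fell by 0.58 ± 0.10 (adjusted p = 9.12e-04). A second Mdm4 probe set, 1419558_at, differed by 0.55 in the opposite direction. The proliferation markers Mki67 and Top2a rose by 1.92 and 3.56 in the same comparison, and all 11 tested markers of that list rose.

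**Figure D4:**
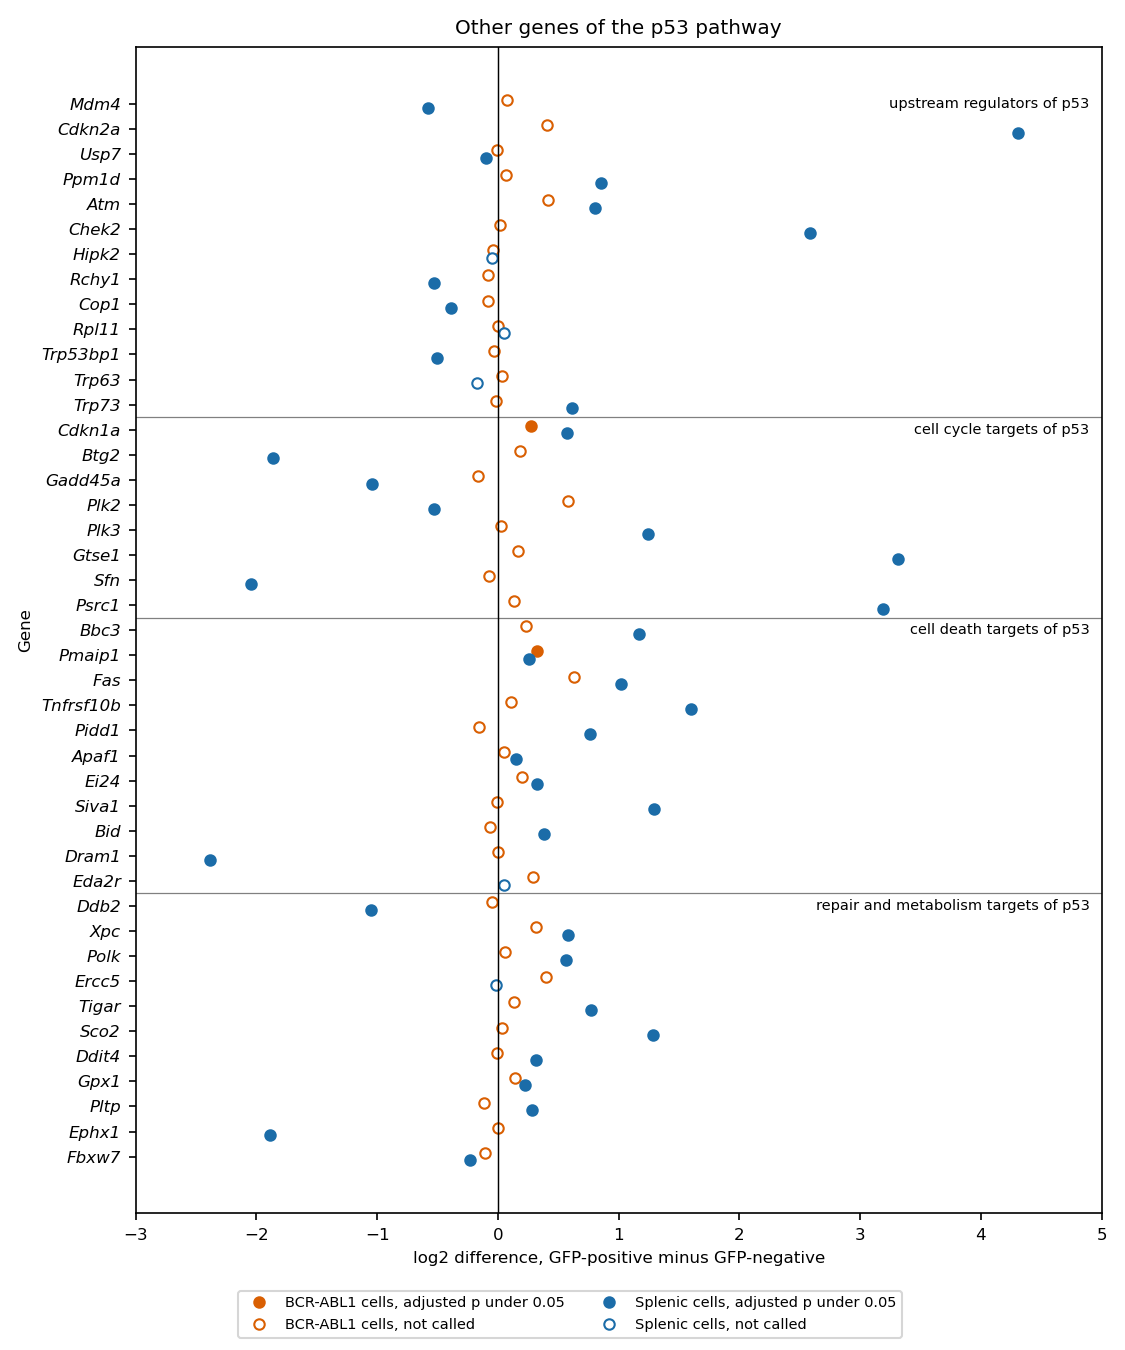
Log2 difference, GFP-positive minus GFP-negative, of the tested p53 pathway genes outside the 9 targets, grouped by list; filled points have an adjusted p under 0.05 by limma. In BCR-ABL1 cells only Cdkn1a and Pmaip1 are filled among these genes, and in splenic cells the points run from Dram1 at -2.38 to Cdkn2a, drawn at its floor-limited value of 4.30.

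The profile of Mdm2 1423605_a_at over the 4 group means was nearly flat. The genes with the smallest root mean square difference from it, on centred log2 means, were Pabpn1 (0.0081), Rps10 (0.0083), Kdm1a (0.010), Lats1 (0.010) and Rpl13a (0.011). This is a likeness over 4 group means and a description only.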

How the data were processed

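RNA of 8 samples was hybridised to 1-colour Affymetrix mouse arrays, and the authors deposited 1 linear signal intensity per probe set and array. The submitters' processing notes name GCOS 1.3, and how probes were summarised and scaled is not stated in the labels. Trimmed mean signals (2% trimmed) were 497 and 477 on the Spleen GFP-negative arrays and ran from 589 to 594 on all other arrays.

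Arrays were quantile normalized after 64 control probe sets were removed, values under 32 were set to 32 and log2 was taken. Probe sets whose mean log2 value fell short of the 40th percentile (signal 51.0) were dropped, and 27022 were tested with limma 3.58.1 in R 4.3.3 (1 mean per group, eBayes with trend, 4 residual degrees of freedom), Benjamini-Hochberg adjusted over each contrast. The code was tested on simulated data. An exact permutation test of 2 arrays against 2 cannot go below p = 0.333, so calls rest on the model. Fold bounds set an unmeasured group at the floor.

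The members, the gene lists and the alternatives (scaling, floor, filter, variance model, probe set choice, replicate number, arrays left out) were chosen with earlier results of these data known. All member probe sets were named. Other genes were named from a list written with the design, plus the 3 others with the largest called difference per GFP contrast. Trp53, its planned likeness search and Bax are not analysed here.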

Additional observations from a re-analysis of the deposited data

Results flagged for a closer look

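The GFP difference in BCR-ABL1 cells minus that in splenic cells, tested as an interaction by limma over all probe sets (69.8% called), passed the threshold for 20 of the 23 tested member probe sets. It was above 0 for Sesn1 1433711_s_at (1.75), 1438931_s_at (1.46), 1444376_at (2.06) and 1454699_at (1.49), for Trp53inp1 1416926_at (1.40) and 1416927_at (0.65), and for Rrm2b 1433773_at (0.93). It was below 0 for Mdm2 1427718_a_at (-0.68) and for Ccng1 1420827_a_at (-0.53), 1450016_at (-1.97) and 1450017_at (-2.51). Sesn2 1425139_at (-2.24), Zmat3 1449353_at (-1.20) and Phlda3 1449002_at (-2.47) were below 0 as well. So were Aen 1437373_at (-2.46), 1450506_a_at (-2.30) and 1451186_at (-1.49), and Rrm2b 1437221_at (-0.83), 1437222_x_at (-1.22) and 1437476_at (-0.83). For Aen 1451186_at and Rrm2b 1437476_at the Spleen GFP-negative arrays were at the floor, so their size depends on it. These values rest on the same 2 Spleen GFP-negative arrays that stood apart in markers and Gapdh ratio, whose part in them was not tested.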

How the results depend on the processing

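Counts of called member probe sets were 0, 21, 20, 16 and 21 for the GFP effect in BCR-ABL1 cells, in splenic cells, their difference, and the source effect in GFP-positive and in GFP-negative cells. The shares of all probe sets called were 2.80%, 78.2%, 69.8%, 44.0% and 78.9% in the same order. Single values were compared over pairs of probe set and setting. They kept their side of the threshold, and their direction where called in the main fit or that setting, in 540 of 542, 503 of 519, 444 of 496, 476 of 519 and 451 of 496 pairs. Direction was not compared for values called in neither. Some uncalled values in BCR-ABL1 cells changed sign, such as Sesn1 1444376_at (-0.20 to 0.11). Leaving out single arrays gave 0, 21, 16 to 19, 10 to 17 and 18 to 20 calls. Without both Spleen GFP-negative arrays, chosen after seeing the data, 2 were called in BCR-ABL1 cells. Over 9 genes, the brightest probe set gave 7, 7, 7 and 8 calls for the last 4 comparisons, beside 77.1%, 69.0%, 50.3% and 78.5% of all genes. The mean of probe sets gave 9, 9, 8 and 7, beside 78.4%, 70.8%, 49.6% and 80.3%. Both have fewer units to call. A 2-fold minimum gave 7 and 11 for the source effects, beside 13.9% and 45.1% of all probe sets. The replicate number as a block gave 0, 21, 21, 17 and 21, beside 2.77%, 80.4%, 72.6%, 48.1% and 81.7%. The labels tie equal numbers to no shared source. Their deviations correlated at 0.110 in BCR-ABL1 and 0.272 in spleen, with 2 pairs each, too few to tell whether the numbers pair the samples. The block added Sesn2 1451599_at in the difference (-0.64, adjusted p = 0.0189) and Aen 1451186_at in GFP-positive cells (0.57, adjusted p = 0.0343). Turns of sign are listed only for values called in the main fit or in the setting. Such signs turned on the deposited scale for Mdm2 1423605_a_at in spleen (0.13) and Sesn2 1451599_at between GFP-negative groups (0.087). After a median shift they turned for Mdm2 1423605_a_at in spleen (0.29), in the difference (-0.27) and between GFP-negative groups (0.18), for Rrm2b 1433773_at (0.069) and for Sesn2 1451599_at (0.20) between GFP-negative groups. With the mean of probe sets they turned for Mdm2 in spleen (0.30) and in the difference (-0.31), Rrm2b in spleen (0.53), in the difference (-0.49) and between GFP-negative groups (0.99), and there for Trp53inp1 (0.32) and Sesn2 (0.26), since these genes' probe sets disagree. For the turns by scaling the cause was not tested. Higher calls in the difference were 42.3% of all calls, 33.9% on the deposited scale and 28.4% after a median shift. Quantile normalization within a source was not run for source effects, whose groups would then be on separate scales. The 4 arrays alone cannot give the difference. Probe sets near the floor (Aen 1451186_at and the Rrm2b probe sets other than 1433773_at) carry the least signal over background.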

Other observations

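Outside the genes named by rule, Eda2r, a p53 target that encodes an ectodysplasin receptor, was chosen after its values were seen. Its signals were 172 and 187 on the BCR-ABL1 GFP-positive arrays, 131 and 164 on the BCR-ABL1 GFP-negative arrays, 32 and 34.3 on the Spleen GFP-positive arrays and 32 on both Spleen GFP-negative arrays. All spleen arrays were at or next to the floor, so no size is given for the difference between the GFP-positive groups. Between the GFP-negative groups Eda2r was at least 4.59-fold higher in BCR-ABL1 cells. The GFP difference in BCR-ABL1 cells was 0.29 ± 0.14 (adjusted p = 0.547 by limma).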
